A study of Mus musculus with 7 samples.

Results

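Sphingosine 1-phosphate (S1P) is a lipid mediator that guides leukocytes between tissue, lymph and blood, and 8 mouse genes of its signalling and turnover were followed across sorted lung myeloid cells. They were chosen by gene symbol, as the 5 S1P receptors S1pr1 to S1pr5, the 2 sphingosine kinases Sphk1 and Sphk2 and the S1P lyase Sgpl1, and all 8 were found among the 26130 genes of the count table. The cells came from the lungs of Fth1-mScarlet x Lyz2GFP mice, which carry a red fluorescent reporter of Fth1, the ferritin heavy chain gene, and a green reporter of Lyz2, the lysozyme gene of myeloid cells. Cells were sorted as Lyz2GFP+ CD11b+ Ly6C+ Ly6G-, features of monocytes and of macrophages derived from them. Untreated Fth1-low cells (n = 2 libraries) were taken from untreated mice by low mScarlet signal. Those called LPS Fth1-low (2 libraries) and those called LPS Fth1-high (3 libraries) were taken by low or high mScarlet signal 3 days after 20 μg of lipopolysaccharide in 50 μl was placed in the trachea. The age and sex of the mice, and whether a library is 1 mouse or a pool, are not stated in the labels. P-values therefore measure only the spread between these libraries, part of which may be technical. No untreated group of high mScarlet signal was analysed here, so LPS Fth1-high against untreated Fth1-low cells combines treatment and gate, which cannot be told apart.

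S1P is made inside cells when a sphingosine kinase phosphorylates sphingosine, and it is destroyed for good when the lyase cleaves it. Exported S1P is plentiful in blood and lymph and scarce within tissue, and cells read that gradient through G protein-coupled receptors. S1PR1 couples to Gi and promotes egress from tissue, S1PR2 couples to G12/13 and restrains migration, and S1PR5 is known for its role in the release of nonclassical monocytes and natural killer cells from bone marrow.

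Promoter sequence is shown for 3 receptor genes because S1pr5 and S1pr4 transcripts fell where S1pr2 transcripts rose. S1pr5 and S1pr2 lie on chromosome 9, 266 kb apart, both on the minus strand (S1pr5 at 21242912 to 21248443 and S1pr2 at 20962361 to 20976781 in mm10), and S1pr4 lies on chromosome 10 (81497747 to 81500132, minus strand). The 250 bases before the annotated start are given 5′ to 3′ from RefSeq on GRCm38.p6, as chr9:21248444-21248693 for S1pr5, chr10:81500138-81500387 for S1pr4 and chr9:20976794-20977043 for S1pr2, all minus strand.
S1pr5: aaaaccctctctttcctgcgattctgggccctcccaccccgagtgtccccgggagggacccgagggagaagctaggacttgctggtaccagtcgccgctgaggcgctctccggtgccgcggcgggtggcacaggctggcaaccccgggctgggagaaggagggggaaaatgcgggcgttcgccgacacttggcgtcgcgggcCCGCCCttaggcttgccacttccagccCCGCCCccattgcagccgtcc
S1pr4: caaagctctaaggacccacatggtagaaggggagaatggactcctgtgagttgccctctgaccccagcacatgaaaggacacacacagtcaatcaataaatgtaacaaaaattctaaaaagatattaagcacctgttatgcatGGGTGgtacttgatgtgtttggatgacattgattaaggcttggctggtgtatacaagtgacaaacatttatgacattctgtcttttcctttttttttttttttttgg
S1pr2: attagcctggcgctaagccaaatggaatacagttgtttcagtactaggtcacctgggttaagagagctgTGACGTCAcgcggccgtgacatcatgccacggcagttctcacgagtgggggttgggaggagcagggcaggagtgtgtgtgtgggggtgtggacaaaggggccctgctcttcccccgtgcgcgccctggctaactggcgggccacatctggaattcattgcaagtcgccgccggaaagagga
Capitals mark 2 matches to a GC box (GGGCGG) in S1pr5, 1 to a CACC box (CACCC) in S1pr4 and 1 to a cAMP response element (TGACGTCA) in S1pr2, on either strand and with no overlap with another motif searched. The CACC box is not particular to S1pr4: the S1pr5 window held 2 matches and the S1pr2 window 1, which are not marked.

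Among the 250-base windows of all RefSeq starts in the table, 33% held a GC box, 52.1% a CACC box and 1.56% a cAMP response element. The window of S1pr5 was 69.2% G and C, that of S1pr2 59.2% and that of S1pr4 38.8%. The other motifs searched were the NR4A response element AAAGGTCA (1.35% of windows), a T-box motif TCACACCT (1.12%), the kappaB site (0.36%) and a TATA box TATAAA (12.3%). These other motifs had no match in the 3 windows shown, and in all 12 windows of the 7 members that matched the table the only one was a TATA box 31 bases before the first listed start of Sphk1. A match is a description of these letters only. The S1pr5 window lies within an exon of Gm48303 on the opposite strand.

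The libraries differed in depth, and that sets the precision of low values. LPS Fth1-low replicate 1 held 637787 counts, against 10459703 to 27997007 in the other 6 libraries, and 1 count in it equalled 1.67 CPM (CPM is the count scaled to a common library size, with TMM factors) against 0.0353 to 0.0932 CPM elsewhere. Ribosomal RNA genes took 18.7% of its counts and 0.631% to 8.33% in the others. Fth1, the gate gene, was 1786 and 1672 CPM in untreated, 2970 and 4825 in LPS Fth1-low, and 13230.5, 21000 and 20473 in LPS Fth1-high libraries, in the order of the gate. The labelled myeloid type matched its markers, as Ptprc, Itgam, Csf1r, Cd68, Lyz2 and Ly6c2 were at 407 CPM or more in every library. Ly6g, the neutrophil gene, was at 0.0932 CPM or less. Lyz2, Itgam (CD11b), Ly6c2 and Ly6g stand for features of the sort, so their values were largely set by it. Epithelial markers summed to 592 CPM in untreated replicate 1, of which Sftpc was 494, and to 3.08 CPM in replicate 2. Of 13665 genes tested with edgeR's quasi-likelihood test (Benjamini-Hochberg adjusted p below 0.05 is a call), 8.25% were called between LPS Fth1-high and LPS Fth1-low, 3.62% between LPS Fth1-low and untreated, and 24.3% between LPS Fth1-high and untreated cells. All 8 members passed the filter on low counts and were tested.

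In these cells the most abundant S1P receptor transcript per length of exon was S1pr5 in untreated mice and S1pr2 in the Fth1-high cells after it. S1pr5 and S1pr4 fell while S1pr2 rose, in those cells against untreated ones, and Sphk1 was higher in both LPS groups than in untreated cells. Between the LPS gates 3 of 8 members were called, 1 higher and 2 lower, beside 8.25% of all genes tested (3.68% higher, 4.57% lower). For LPS within the Fth1-low gate 2 of 8 were called, 1 in each direction, beside 3.62% (2.99% higher, 0.629% lower). For LPS Fth1-high against untreated cells 5 of 8 were called, 3 higher and 2 lower, beside 24.3% (12.4% higher, 11.9% lower). Groups without overlap are mentioned gene by gene below, and they are common at this n: 41.3%, 39.5% and 58.1% of all genes tested had none in the 3 comparisons. The median log2 difference of the 8 was -0.05, -0.16 and -0.09 in that order, beside 0.04, -0.05 and 0.03 for all genes. The 3 comparisons share libraries, so they are not independent of each other.

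**Figure D1:**
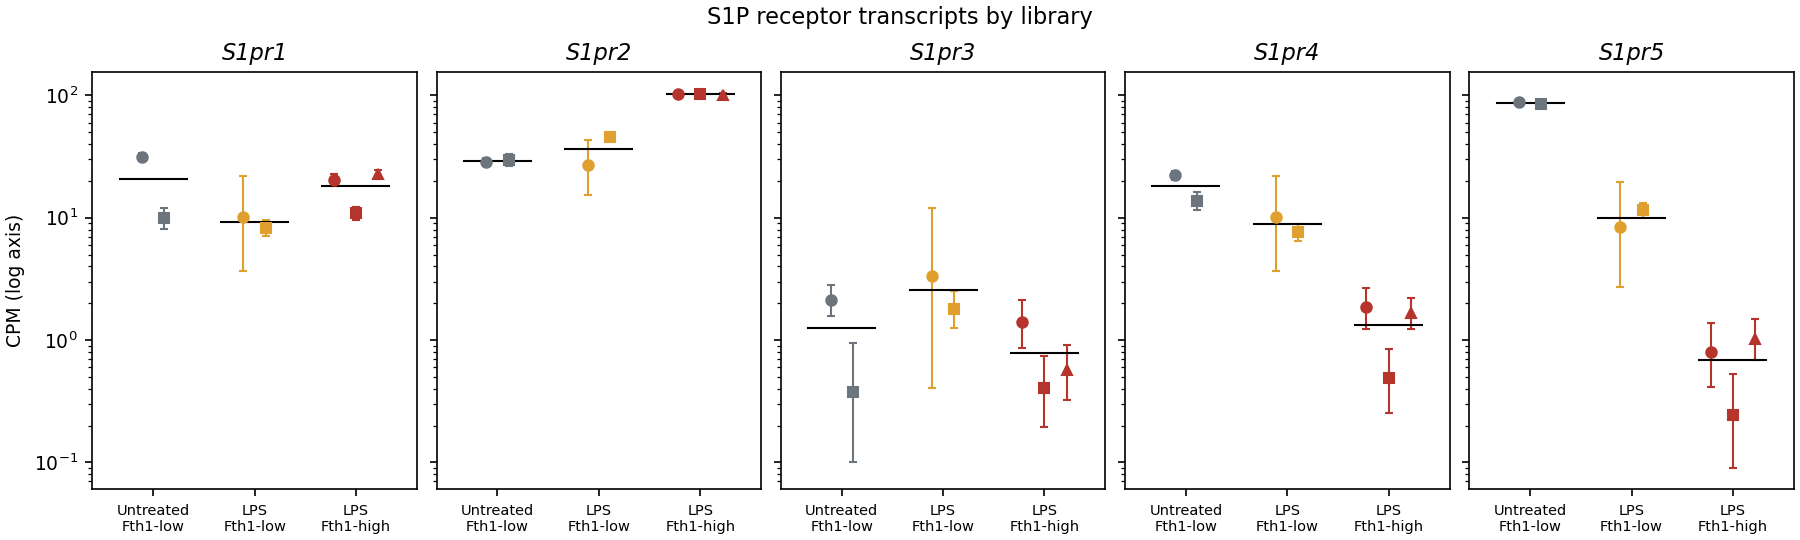
CPM on a log axis for the 5 S1P receptor genes in each library (circle, replicate 1; square, replicate 2; triangle, replicate 3), with exact 95% Poisson intervals for counting error and a black line at the group mean. S1pr5 steps down from 86.7 to 9.92 to 0.688 CPM over the groups, and the 3 LPS Fth1-high libraries of S1pr2 lie at 102 to 103 CPM.

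S1pr5 had the largest difference of the 8 genes between the LPS gates and between LPS Fth1-high and untreated cells. It was 87.8 and 85.6 CPM in untreated Fth1-low libraries, 8.37 and 11.5 CPM after LPS in the Fth1-low gate, and 0.796, 0.244 and 1.03 CPM in LPS Fth1-high libraries. The groups formed 3 separate levels with no overlap, and the 2 untreated libraries were nearly equal. LPS Fth1-low cells had 7.98-fold less S1pr5 transcript than untreated cells (log2 difference -3.00 ± 0.42 SE, adjusted p = 0.0038, edgeR). LPS Fth1-high cells had 15.6-fold less than LPS Fth1-low cells (-3.97 ± 0.42, edgeR adjusted p = 6.1e-04) and 125-fold less than untreated cells (-6.96 ± 0.40, edgeR adjusted p = 5.7e-06). The LPS Fth1-low value of replicate 1 rested on 5 counts (exact 95% Poisson interval 2.72 to 19.5 CPM). On leaving out LPS Fth1-low replicate 2 the first difference became -3.39 (adjusted p = 0.059) and the second -3.58 (adjusted p = 0.115), neither of them called.

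Nonclassical monocyte markers moved in the same direction as S1pr5. The summed CPM of 8 such markers was 8806 to 10495 in untreated, 4133 to 4249 in LPS Fth1-low, and 1198 to 1470 in LPS Fth1-high libraries, and all 8 were detected in each library. Between LPS Fth1-high and untreated cells all 8 markers were called lower, beside 11.9% of all genes tested. Their log2 values ran from -6.83 to -1.75 and their median was -3.58. Among them Ace, the angiotensin-converting enzyme gene, had the -6.83. All 8 also had negative differences in the other comparisons, where fewer were called. Between the LPS gates 7 of 8 markers were called lower (median -1.81), beside 4.57% of all genes. That count was 5 without LPS Fth1-high replicate 3 and 6 without replicate 2. It also fell when either LPS Fth1-low library was omitted. Between LPS Fth1-low and untreated cells 3 of 8 were called lower (median -1.63), beside 0.629%. Most of those calls were lost when untreated replicate 1 or 2 was omitted, and not all were kept without LPS Fth1-low replicate 1. Alveolar macrophage markers, 6 genes, stepped down further in sum, from 534 and 317 CPM in untreated to 124 and 117 in LPS Fth1-low and 13.6, 14.8 and 41.5 in LPS Fth1-high libraries. Most of that sum was Ear2 in the Fth1-low libraries only. In LPS Fth1-high libraries Ear2 was 4.45, 4.39 and 10.9 CPM, and Marco was 3.72, 6.95 and 14.4 CPM. Against untreated cells 3 of the 6 were called lower in LPS Fth1-high cells (Ear2, Fabp4 and Pparg) and 1 higher (Marco). The shares of all genes were 11.9% and 12.4%. T and NK cell markers, the other cell types known for S1pr5, summed to 20.1 to 37.9 CPM in untreated, 22 to 35.2 in LPS Fth1-low and 4.35 to 12.5 in LPS Fth1-high libraries. Of their NK genes, Ncr1 was at most 1.67 CPM, Klrb1c at most 3.17 and Gzma at most 7.70. Klrb1c was the 1 marker of 8 called lower against untreated cells (-2.54, edgeR adjusted p = 0.037), beside 11.9% of all genes. That call was lost when untreated replicate 1 or 2, or Fth1-high replicate 2 (0.102) or 3 (0.114), was omitted. Classical monocyte markers, 6 genes, summed to 4592 to 4857, 6636 to 10042 and 3135 to 5584 CPM. Between the gates 4 of the 6 were called lower, beside 4.57% of all genes, while Ly6c2 was at 1.03 without a call. Of those, Chil3 (edgeR adjusted p = 0.040) was not called without the filter (0.103), in the fit of 2 groups only (0.058) or with limma voom (0.129). Without LPS Fth1-high replicate 3 the count was 3. In LPS Fth1-high against untreated cells 4 were called lower and Ly6c2 higher (1.78, edgeR adjusted p = 0.0039), beside 11.9% and 12.4%. These 5 calls became 4 without LPS Fth1-high replicate 1 or 3 and 6 without replicate 2. They were fewer when either untreated library was omitted. For LPS in the Fth1-low gate 1 was called, Vcan, which was higher (2.59, edgeR adjusted p = 0.0018), beside 2.99%. Dendritic cell markers, 5 genes, summed to 43.0 to 43.2, 35.2 to 47.5 and 1.38 to 4.84 CPM. Flt3 was the 1 of 5 called lower between the gates (-5.43) and in LPS Fth1-high against untreated cells (-5.68). The shares of all genes were 4.57% and 11.9%. Siglech had differences of 0.54 and 1.52 in these comparisons that were not called. The part of any of these cell types in the S1pr5 differences was not tested, and in bulk RNA fewer cells of a type and less RNA per cell cannot be told apart.

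S1pr4, a receptor largely restricted to blood and lymphoid cells, was likewise lowest in the Fth1-high libraries. Its level was 22.2 and 13.8 CPM in untreated, 10.0 and 7.61 CPM in LPS Fth1-low, and 1.86, 0.488 and 1.66 CPM in LPS Fth1-high libraries. The 3 groups did not overlap, but the Fth1-low groups lay close together. The 10.0 CPM rested on 6 counts (exact 95% Poisson interval 3.69 to 21.9 CPM). That interval spans the untreated 13.8 CPM, so the separation of the Fth1-low groups lies within counting error. LPS Fth1-high cells were 6.26-fold below LPS Fth1-low cells (log2 difference -2.65 ± 0.54 SE, edgeR adjusted p = 0.016) and 13.6-fold below untreated cells (-3.77 ± 0.50, edgeR adjusted p = 5.5e-04). LPS Fth1-low against untreated gave -1.12 ± 0.58, which was not called (edgeR adjusted p = 0.47, 95% interval -2.43 to 0.18). The call between the LPS gates did not hold when LPS Fth1-low replicate 1 (-2.55, adjusted p = 0.055) or replicate 2 (-2.92, adjusted p = 0.132) was left out.

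S1pr2 went the other way. It was 28.6 and 29.8 CPM in untreated, 26.8 and 45.9 CPM in LPS Fth1-low, and 103, 102 and 102 CPM in LPS Fth1-high libraries. Every Fth1-high library was above every Fth1-low library, while the LPS Fth1-low libraries lay on both sides of the untreated ones. The Fth1-high cells exceeded LPS Fth1-low cells 2.59-fold (log2 difference 1.37 ± 0.23 SE, edgeR adjusted p = 0.0070) and untreated cells 3.50-fold (1.81 ± 0.22, edgeR adjusted p = 3.7e-04). Both calls held in all 16 alternatives run, with log2 values of 1.13 to 1.94 and 1.77 to 1.85. LPS Fth1-low against untreated gave 0.43 ± 0.24 and was not called (edgeR adjusted p = 0.52, 95% interval -0.12 to 0.98).

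S1pr1, the egress receptor, was not called in any of the 3 comparisons. It was 31.6 and 9.88 CPM in untreated, 10.0 and 8.28 CPM in LPS Fth1-low, and 20.5, 10.9 and 22.6 CPM in LPS Fth1-high libraries. The untreated pair was far apart and overlapped both other groups, while the LPS groups were separated by a small margin that lies within the counting error. The log2 difference was 1.06 ± 0.56 between the LPS gates (edgeR adjusted p = 0.33, 95% interval -0.22 to 2.34), -1.28 ± 0.60 for LPS within the Fth1-low gate (adjusted p = 0.41, interval -2.63 to 0.08) and -0.22 ± 0.46 for LPS Fth1-high against untreated (adjusted p = 0.77, interval -1.26 to 0.82). Endothelial cells are a rich source of S1pr1. The 7 endothelial markers summed to 284 and 116 CPM in untreated, 249 and 107 in LPS Fth1-low, and 175, 29.3 and 93.1 in LPS Fth1-high libraries. Among them Cdh5, VE-cadherin, was 67.3 CPM in untreated replicate 1 and 8.20 in replicate 2. Vwf went the other way, at 60.4 and 80.6 CPM, and made up most of the sum in replicate 2. In the untreated and the LPS Fth1-high groups the library with the lowest endothelial sum also had the lowest S1pr1. This was not particular to endothelial markers, as B cell, T and NK cell, fibroblast and epithelial sums were lowest in the same libraries. B cell markers summed to 68.9 and 31.7 CPM in untreated and 33.8, 6.42 and 16.9 in LPS Fth1-high libraries. Neutrophil markers were highest in LPS Fth1-high replicate 2. In LPS Fth1-low the order of S1pr1 is not resolved, since the 10.0 CPM of replicate 1 rested on 6 counts (exact 95% Poisson interval 3.69 to 21.9 CPM). The part of any of these cell types in the S1pr1 values was not tested.

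S1pr3, a receptor of endothelial and smooth muscle cells, was by mean level per length of exon the scarcest receptor in each group. It measured 2.12 and 0.373 CPM in untreated, 3.35 and 1.80 CPM in LPS Fth1-low, and 1.39, 0.406 and 0.566 CPM in LPS Fth1-high libraries. The groups overlapped except for the 2 LPS groups, and the 3.35 CPM rested on 2 counts (exact 95% Poisson interval 0.405 to 12.1 CPM). No comparison was called (edgeR adjusted p = 0.42, 0.84 and 0.57, for the gates, for LPS in the Fth1-low gate and for both together). The 95% interval between the gates, from -3.67 to 0.67 on the log2 scale, left a wide range of sizes.

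**Figure D2:**
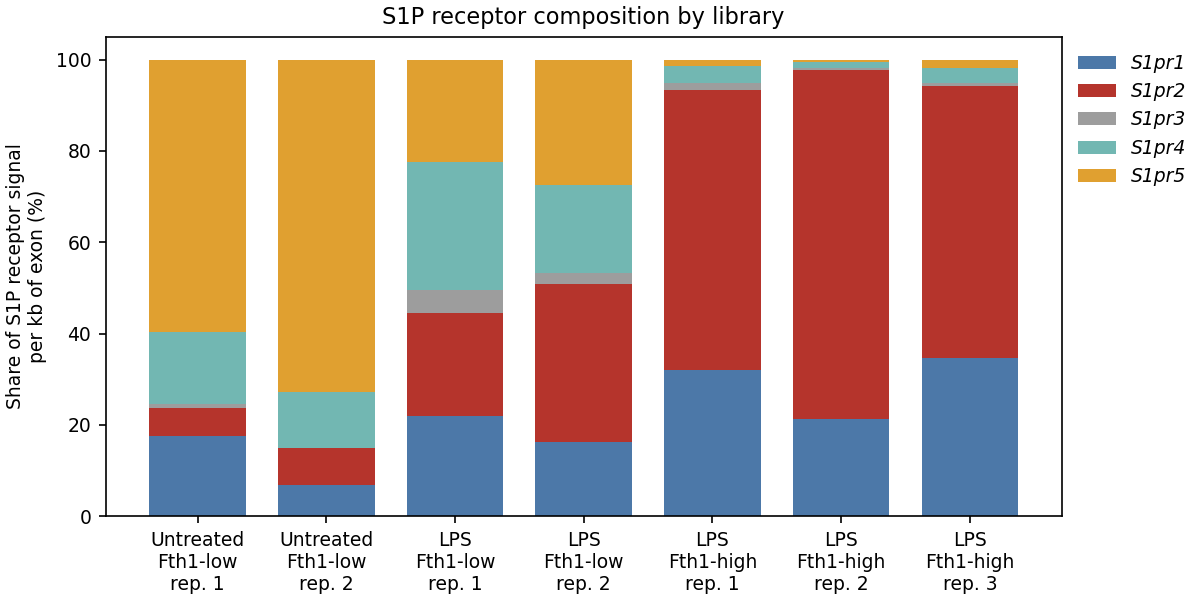
Share of each S1P receptor gene in the summed receptor signal of a library, in percent, after division of each count by the gene's exon length. S1pr5 holds 59.6% and 72.7% in the 2 untreated libraries and 0.583% to 1.92% in the 3 LPS Fth1-high libraries, where S1pr2 holds 59.5% to 76.3%.

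Expressed per length of exon, the receptor make-up turned over. Exon length was the union over all annotated transcripts, 7971 bp for S1pr2 (4 transcripts) and 2500 bp for S1pr5 (1), which lowers S1pr2 relative to S1pr5. S1pr5 made up 59.6% and 72.7% of receptor signal per kb in untreated libraries, 22.4% and 27.5% in LPS Fth1-low libraries and 1.51%, 0.583% and 1.92% in LPS Fth1-high libraries. S1pr2 made up 6.09% and 7.95%, then 22.5% and 34.6%, then 61.3%, 76.3% and 59.5%. By raw counts S1pr2 held 45.7% and 61.2% in LPS Fth1-low libraries, and S1pr5 held 14.3% and 15.3%. The 22.4% and 22.5% of LPS Fth1-low replicate 1 rest on 35 receptor counts, 5 of S1pr5 and 16 of S1pr2. As shares of raw counts their 95% Wilson intervals were 6.26% to 29.4% and 30.5% to 61.8%, so this step is imprecise. As a share of raw receptor counts S1pr5 ranged from 50.9% of 4138 counts (95% Wilson interval 49.4% to 52.5%) in untreated replicate 1 and 61.4% of 1496 in replicate 2 down to 0.214% of 2799 (0.0983% to 0.467%) in LPS Fth1-high replicate 2. These are descriptions, since shares add up to a whole and were not tested. Receptor CPM summed to 156 ± 23.2 (SD, n = 2) in untreated, 66.8 ± 11.7 (n = 2) in LPS Fth1-low and 123 ± 7.90 (n = 3) in LPS Fth1-high cells. The sum without S1pr5 was 69.2 ± 21.7, 56.9 ± 9.47 and 122 ± 7.51 CPM, with the LPS Fth1-high libraries highest.

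**Figure D3:**
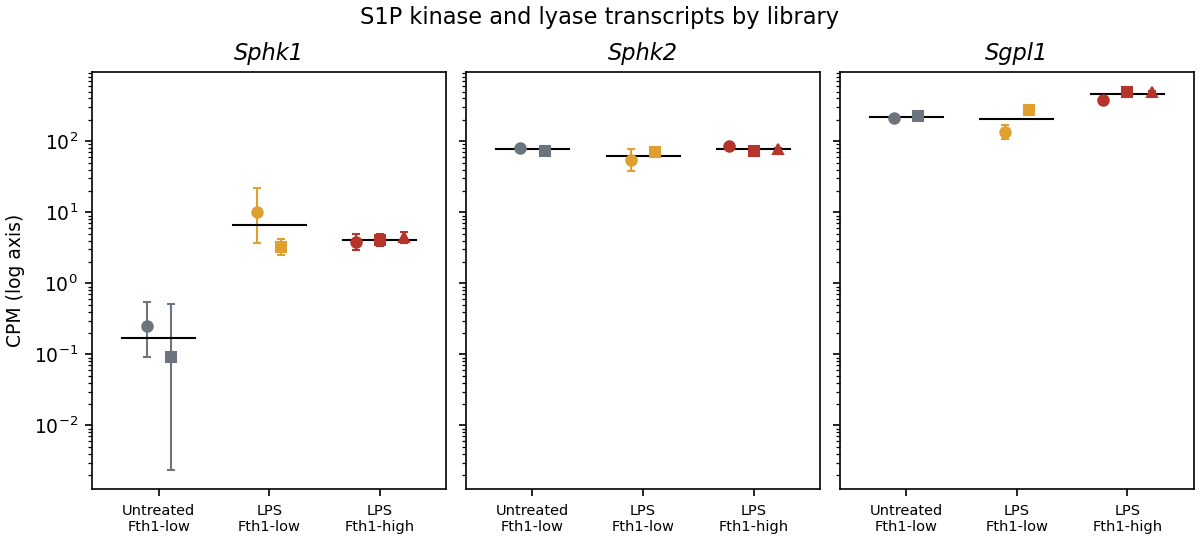
CPM on a log axis for the kinase genes Sphk1 and Sphk2 and the lyase gene Sgpl1 in each library, drawn as in the receptor plot with exact 95% Poisson intervals and a black line at the group mean. Sphk1 lies at 0.0932 and 0.250 CPM in untreated libraries and at 3.29 to 10.0 CPM in all 5 LPS libraries, while Sphk2 stays between 55.2 and 86.0 CPM throughout.

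LPS groups differed from untreated cells in Sphk1 and not by a call in Sphk2. Sphk1, the cytosolic isoform known to be induced by inflammatory signals, was 0.250 and 0.0932 CPM in untreated, 10.0 and 3.29 CPM in LPS Fth1-low, and 3.85, 4.10 and 4.45 CPM in LPS Fth1-high libraries. All 5 LPS libraries were above both untreated ones, and the LPS groups overlapped. The rise was 4.78 ± 0.79 on the log2 scale in LPS Fth1-low (edgeR adjusted p = 0.0094) and 4.40 ± 0.71 in LPS Fth1-high cells (edgeR adjusted p = 0.0017) against untreated cells. Only 7 counts in all, 6 and 1, stood behind the untreated level, and 6 behind the 10.0 CPM (exact 95% Poisson interval 3.69 to 21.9 CPM), so the fold is imprecise. In LPS Fth1-low cells the rise was 4.11 without LPS Fth1-low replicate 1, and it lost its call without untreated replicate 1 (5.71, adjusted p = 0.056) or replicate 2 (4.39, adjusted p = 0.077). In LPS Fth1-high cells it was 5.36 without untreated replicate 1 and stayed called. Between the LPS gates the difference was -0.38 ± 0.61 (adjusted p = 0.78, 95% interval -1.76 to 0.99).

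Sphk2, the isoform found in nucleus and mitochondria, was not called in any comparison. It was 79.5 and 73.6 CPM in untreated, 55.2 and 70.5 CPM in LPS Fth1-low, and 86.0, 72.5 and 76.7 CPM in LPS Fth1-high libraries. The highest and lowest library differed less than for any other member. The log2 difference was 0.28 ± 0.20 between the gates (edgeR adjusted p = 0.48, 95% interval -0.17 to 0.73), -0.25 ± 0.22 for LPS in the Fth1-low gate (adjusted p = 0.72, interval -0.73 to 0.24) and 0.03 ± 0.19 for both together (adjusted p = 0.92, interval -0.39 to 0.46). Sphk1 made up 0.313% and 0.127% of kinase counts in untreated, 15.4% and 4.46% in LPS Fth1-low, and 4.28% to 5.49% in LPS Fth1-high libraries, so most kinase counts were Sphk2 in each library. Exons of Sphk2 overlap Dbp and Rpl18 on the opposite strand over 13% and 8.97% of their length. The strand counted is not stated, so reads of Sphk2 and of these genes cannot be told apart there.

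Sgpl1, the lyase that ends S1P for good, had the highest mean level of the 8 per length of exon in each group. It was 215 and 228 CPM in untreated, 134 and 275 CPM in LPS Fth1-low, and 381, 497 and 496 CPM in LPS Fth1-high libraries. Each Fth1-high library was above all Fth1-low ones, and the LPS Fth1-low pair straddled the untreated pair. LPS Fth1-high cells exceeded untreated cells 2.07-fold (log2 difference 1.05 ± 0.30 SE, edgeR adjusted p = 0.029). That call was lost on leaving out untreated replicate 1 (adjusted p = 0.165), untreated replicate 2 (0.134), or of the Fth1-high libraries replicate 2 (0.076) or 3 (0.079), with log2 values of 0.99 to 1.10. Between the LPS gates the difference was 1.12 ± 0.30, just outside the threshold (edgeR adjusted p = 0.051), and it was called in 8 of 16 alternatives, 1 of them on omission of LPS Fth1-low replicate 2 (1.78, adjusted p = 0.020). For LPS in the Fth1-low gate the difference was -0.08 ± 0.32 (adjusted p = 0.97, 95% interval -0.79 to 0.64). Per Sphk2 count there were 2.70 and 3.10 Sgpl1 counts in untreated, 2.42 and 3.90 in LPS Fth1-low, and 4.43, 6.86 and 6.46 in LPS Fth1-high libraries.

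**Figure D4:**
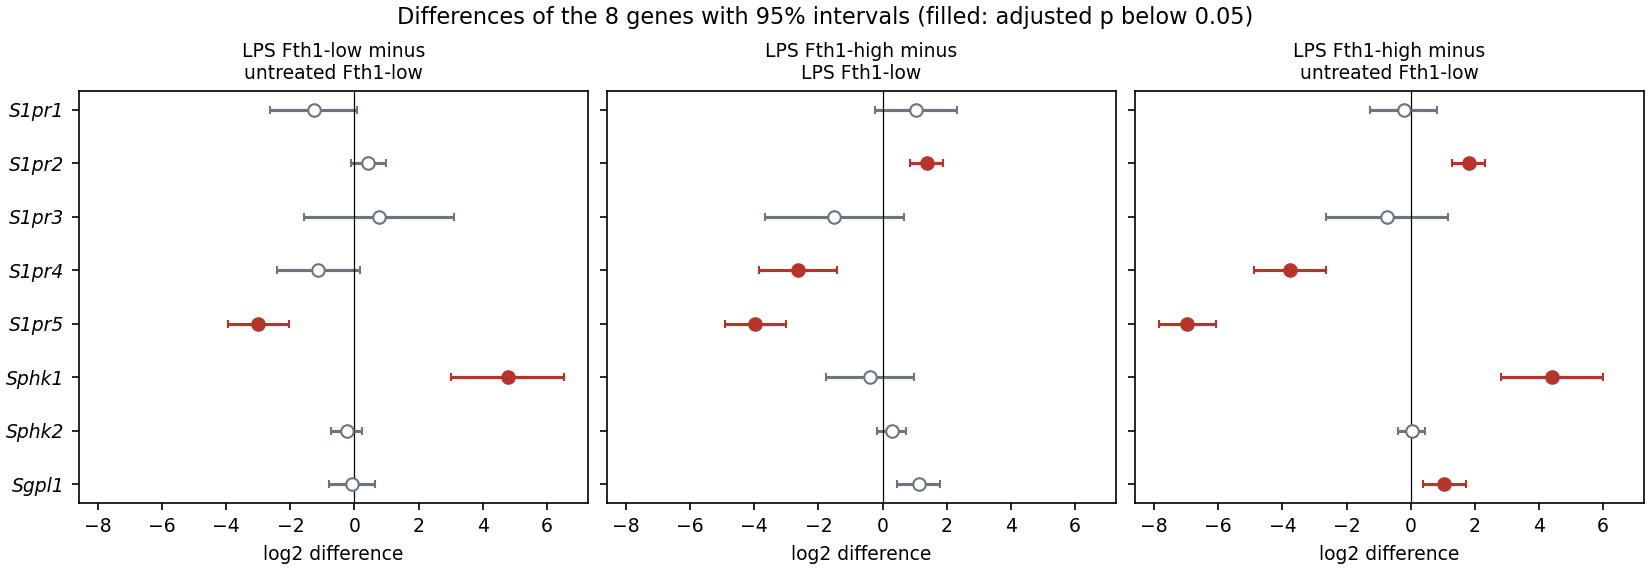
Log2 differences of the 8 genes in the 3 comparisons with 95% intervals from edgeR's quasi-likelihood model, filled red where the adjusted p was below 0.05. S1pr5 lies left of zero in all 3 panels, from -3.00 to -6.96, and Sphk2 lies near zero in all 3, from -0.25 to 0.28.

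The order of levels per kb of exon changed most for S1pr5. In untreated cells the means were 36.0 CPM per kb for Sgpl1, 34.7 for S1pr5, 18.4 for Sphk2, 7.55 for S1pr4, 6.81 for S1pr1, 3.66 for S1pr2, 0.280 for S1pr3 and 0.0359 for Sphk1. There Sgpl1 overlapped S1pr5, and S1pr4 overlapped S1pr1, which overlapped S1pr2. In LPS Fth1-low cells Sgpl1 (33.3) and Sphk2 (15.1) stood apart above S1pr2 (4.56), S1pr5 (3.97), S1pr4 (3.70) and S1pr1 (3.01), whose neighbours in order overlapped, with Sphk1 (1.40) and S1pr3 (0.577) overlapping below. In LPS Fth1-high cells the order was Sgpl1 (74.5), Sphk2 (18.8), S1pr2 (12.8), S1pr1 (5.91) and Sphk1 (0.866), each apart from the next, then S1pr4 (0.560), S1pr5 (0.275) and S1pr3 (0.177), whose neighbours overlapped.

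The genes most like each called member were found by Pearson correlation of log2 CPM over the 7 libraries, among 8088 genes with a mean of 10 CPM or more over the libraries, as a description. A gene could pass that filter through 1 group where it was high, as Cd209a and Slc1a2 did. S1pr5 was most like Cd209a (r = 0.997), a C-type lectin, St6gal1 (0.997), a sialyltransferase, and Mppe1 (0.996), and 323 genes reached r = 0.95. Cd209a was 49.5 and 57.4 CPM in untreated, 3.35 and 4.32 in LPS Fth1-low and at most 0.283 in LPS Fth1-high libraries. S1pr4 was most like Vps37b (0.993), Tpcn1 (0.990) and Irf4 (0.987), a transcription factor, with 133 genes at r = 0.95 or more. S1pr2 was most like Alkbh5 (0.999), an RNA demethylase, Eprs (0.995), a tRNA synthetase, and Slc1a2 (0.995), a glutamate transporter, with 270 such genes. Slc1a2 was at 0 to 1.65 CPM in the Fth1-low libraries and 27.9 to 54.1 in the Fth1-high ones, a far wider span than that of S1pr2. Sphk1 was most like Tspo (0.990), Plaat3 (0.988) and Lamc1 (0.988), with 39 genes, and Sgpl1 most like Rnf14 (0.997), Mphosph10 (0.997) and Nagk (0.994), with 244.

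The other genes that make, move, degrade or relay S1P were taken from 8 lists of 63 genes, of which 55 were tested. Between LPS Fth1-high and untreated cells 12 were higher and 12 lower, beside 24.3% called among all genes (15 called without untreated replicate 2). Between the LPS gates it was 5 and 5, beside 8.25%, and for LPS in the Fth1-low gate 3 and 1, beside 3.62%. The list medians were -0.10, 0.13 and -0.32. The total between the gates was 6 without LPS Fth1-high replicate 1, 3 without replicate 2 and 5 without replicate 3 of that group. For LPS in the Fth1-low gate it was 2 without untreated replicate 2, and 7 when LPS Fth1-low replicate 2 was omitted.

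Receptor regulators included Rgs1, which rose in all 3 comparisons. Of 7 tested, 3 were higher and 3 lower in LPS Fth1-high than in untreated cells, beside 12.4% and 11.9% of all genes. Fewer were called there when untreated replicate 2 was omitted. Between the gates 1 was higher and 1 lower, beside 3.68% and 4.57%. For LPS in the Fth1-low gate 2 were higher, beside 2.99%. Rgs1, which speeds the shut-off of Gi signalling, was 17.3 and 16.3 CPM in untreated, 92.1 and 157 in LPS Fth1-low, and 630, 599 and 756 CPM in LPS Fth1-high libraries. It stood at 3 separate levels in the reverse order of S1pr5, higher by 2.94 ± 0.29 for LPS in the Fth1-low gate (edgeR adjusted p = 5.7e-04) and by a further 2.36 ± 0.27 between the gates (9.7e-04). Cd69, which binds S1PR1 and draws it into the cell, was 24.7 and 25.8 CPM in untreated, 90.4 and 150 in LPS Fth1-low, and 80.4, 65.6 and 89.9 CPM in LPS Fth1-high libraries. All LPS libraries were above the untreated ones (LPS Fth1-low 2.30 ± 0.28, edgeR adjusted p = 0.0017, and LPS Fth1-high 1.64 ± 0.26, 0.0014). Klf2, a transcription factor of S1pr1, was 567 and 872 CPM in untreated, 455 and 411 in LPS Fth1-low and 150, 163 and 217 CPM in LPS Fth1-high libraries, a fall by 2.03 against untreated (edgeR adjusted p = 3.7e-04). Its difference of -1.29 between the gates (edgeR adjusted p = 0.013) was not called on leaving out LPS Fth1-low replicate 1 (0.068) or 2 (0.0503), or of the Fth1-high libraries replicate 2 (0.053).

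**Figure D5:**
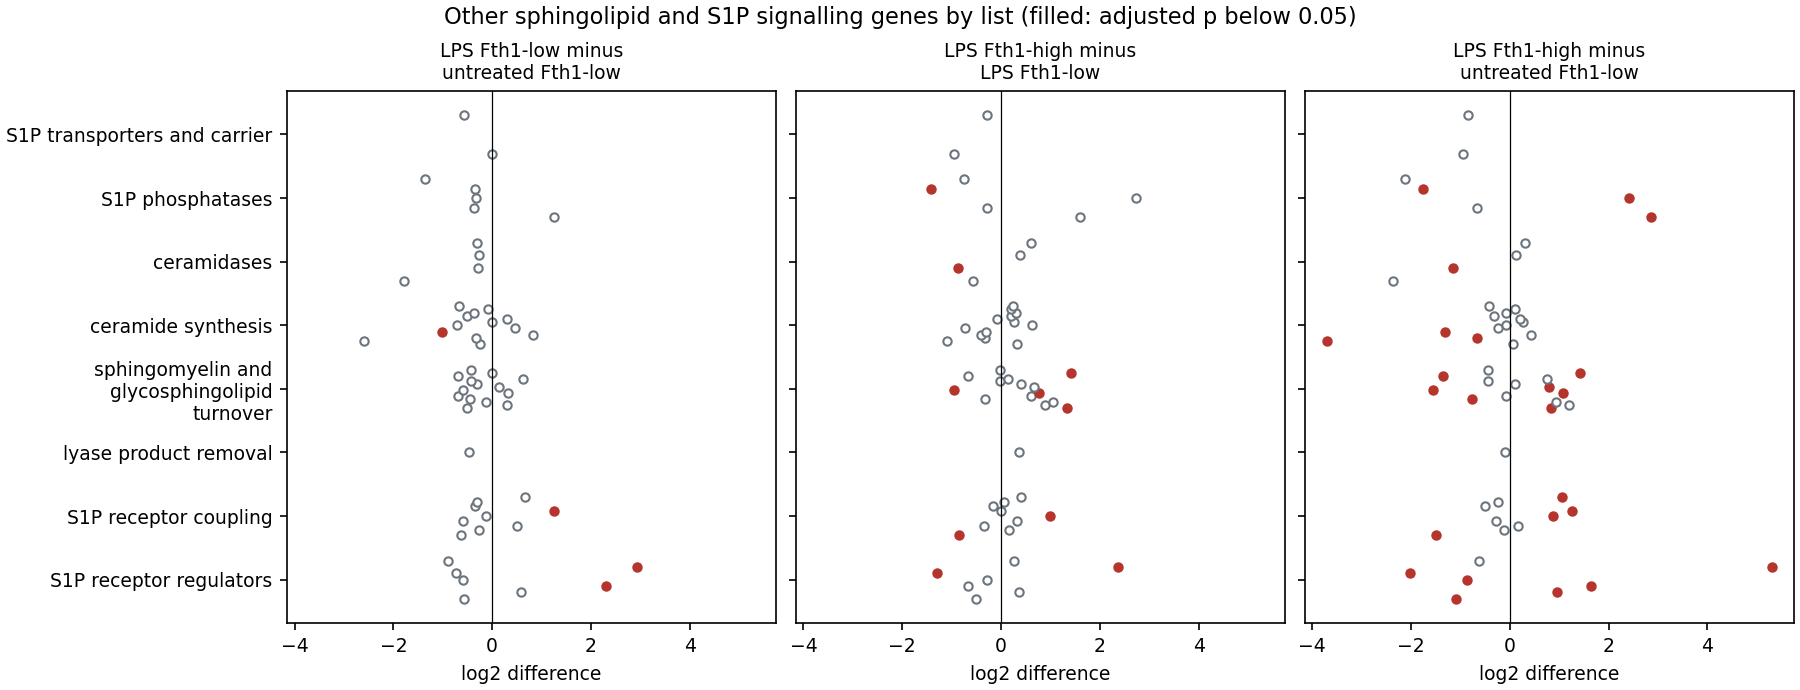
Log2 differences of the 55 tested genes of the 8 lists, 1 row a list and 1 point a gene, in the 3 comparisons, filled red where the adjusted p was below 0.05. Rgs1 is the point at 5.30 in the right panel, and Cers4, at -3.70, is the lowest called ceramide synthesis gene there.

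Among 9 genes of receptor coupling tested, 3 were higher and 1 lower in LPS Fth1-high than in untreated cells, beside 12.4% and 11.9% of all genes. Between the gates 1 was higher and 1 lower, beside 3.68% and 4.57%. For LPS in the Fth1-low gate 1 was higher, beside 2.99%. Gna13, the G13 subunit used by S1PR2, was 154 and 183 CPM in untreated, 417 and 383 in LPS Fth1-low and 434, 416 and 353 CPM in LPS Fth1-high libraries. Both LPS groups were above the untreated one, by 1.25 ± 0.22 (edgeR adjusted p = 0.014) and 1.25 ± 0.21 (0.0019), and the first call was lost without untreated replicate 1 (0.161) or replicate 2 (0.083). Arhgef1, an exchange factor driven by G13, was 626 and 704 CPM in untreated and 263, 223 and 225 CPM in LPS Fth1-high libraries, where it fell by 1.49 (edgeR adjusted p = 6.2e-04). Gnaq, the Gq subunit, was higher by 1.06 against untreated cells (edgeR adjusted p = 0.0029). Gna12, the G12 subunit, was higher by 1.00 between the gates (edgeR adjusted p = 0.025), a call lost on leaving out untreated replicate 2 or, of the Fth1-high libraries, replicate 2 or 3, and in the fit of 2 groups only (0.052). It was 1.60 when LPS Fth1-low replicate 2 was omitted. The lower call between the gates was Arhgef1 (-0.86, edgeR adjusted p = 0.032), which held on omission of LPS Fth1-low replicate 2 but of no other library (adjusted p from 0.0501 to 0.134) and was lost with a replicate block (0.092). Both gate calls of this list were therefore lost without untreated replicate 2 or without Fth1-high replicate 2 or 3.

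Phosphatases return S1P to sphingosine, and their genes split. Of 5 tested, 2 were higher and 1 lower in LPS Fth1-high than in untreated cells, beside 12.4% and 11.9% of all genes. Between the gates 1 was lower, beside 4.57%. Sgpp1, the intracellular S1P phosphatase, was 105 and 114 CPM in untreated, 70.3 and 98.4 in LPS Fth1-low, and 32.8, 31.0 and 33.5 CPM in LPS Fth1-high libraries. The Fth1-high libraries lay below all others, at log2 differences of -1.42 ± 0.20 against LPS Fth1-low (edgeR adjusted p = 0.0027) and -1.76 ± 0.19 against untreated cells (1.7e-04). Plpp3, a lipid phosphatase of the cell surface, was 8.25 and 1.96 CPM in untreated and 32.0, 20.6 and 32.2 CPM in LPS Fth1-high libraries, where it rose (2.41 ± 0.56, edgeR adjusted p = 0.014). Without untreated replicate 1 that rise was 3.85, and without replicate 2 it was 1.79. Plpp1, of the same family, was higher by 2.86 ± 0.66 (edgeR adjusted p = 0.018), by 4.59 without untreated replicate 1, by 2.18 without replicate 2, and was not called without LPS Fth1-high replicate 3 (0.057), without a filter (0.095) or with a replicate block (0.28).

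Ceramide, the source of sphingosine, is made by genes of which 13 were tested. Of these, 3 were lower in LPS Fth1-high than in untreated cells, beside 11.9% of all genes. None was called higher, and 24.3% of all genes were called in either direction. Degs1, the desaturase that completes ceramide, was 409 and 373 CPM in untreated, 169 and 216 in LPS Fth1-low and 137, 180 and 156 CPM in LPS Fth1-high libraries, a fall by 1.31 (edgeR adjusted p = 0.0013). Cers5, a ceramide synthase, was lower at -0.66 (edgeR adjusted p = 0.043), a call that was lost on omitting any 1 of the 5 libraries compared (adjusted p from 0.070 to 0.192), without the filter (0.051) and with a replicate block (0.071). Cers4, another, was 8.33 and 8.11 CPM in untreated and 0.664, 0.325 and 0.884 CPM in LPS Fth1-high libraries, a fall by 3.70 (edgeR adjusted p = 0.0014). Of 4 ceramidases tested, 1 was lower against untreated cells, Acer3 (-1.15 ± 0.20, edgeR adjusted p = 0.0029), beside 11.9% of all genes. Asah1, the lysosomal ceramidase, lay between 241 and 538 CPM and was not called.

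Sphingomyelin and glycosphingolipid genes were divided. In LPS Fth1-high against untreated cells 4 of 14 were higher and 3 lower, beside 12.4% and 11.9% of all genes. The 7 calls became 4 without untreated replicate 1 or LPS Fth1-high replicate 2, and 3 without untreated replicate 2. Sgms1, a sphingomyelin synthase of the Golgi, fell by 1.55 (edgeR adjusted p = 0.0011), whereas Sgms2, the other sphingomyelin synthase, rose by 0.80 ± 0.22 (0.026). Samd8, which makes the related ceramide phosphoethanolamine, rose by 1.09 ± 0.18 (edgeR adjusted p = 0.0022). Smpdl3b, a phosphodiesterase of the cell surface, was higher by 1.41 against untreated cells (edgeR adjusted p = 0.0065), a call lost without untreated replicate 2 (0.067). Cerk, the ceramide kinase, was 63.6 and 90.6 CPM in LPS Fth1-low and 187, 204 and 213 CPM in LPS Fth1-high libraries, higher by 1.34 ± 0.22 between the gates (edgeR adjusted p = 0.0062). Spns2, the S1P exporter of endothelial cells, was 1.02 to 6.62 CPM over the 7 libraries, and its 3 differences were not called (edgeR adjusted p = 0.41 to 0.90). Mfsd2b, the exporter of red cells and platelets, was 0 to 1.86 CPM and was not called either. Aldh3a2, which clears the lyase's aldehyde product, was 43.5 to 77.5 CPM and was not called.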

How the data were processed

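The study sequenced polyadenylated RNA (25 ng a library, stranded mRNA kit, 15 cycles of PCR, 58 bp paired reads), per the labels' protocols. The deposited values are raw counts per gene symbol, and the submitters' processing notes name DRAGEN, DESeq2 and mm10. Versions, annotation, counted strand and filters were not stated. The fit used edgeR 4.0.16 (R 4.3.3): filterByExpr, TMM scaling and a robust quasi-likelihood model with 3 groups over 7 libraries (residual df 4), two-sided, with Benjamini-Hochberg adjustment over 13665 genes. SE is the log2 difference over the square root of F. The members, lists and tests were chosen with earlier results of these data known. From each list the rule named, in each comparison, the called genes with the 3 smallest adjusted p-values, or its most abundant gene where none was called. Asah1, Mfsd2b, Sgms2, the markers named and the levels of Cd209a and Slc1a2 are given beyond that rule, chosen after their values were seen. Positions, exon overlaps and lengths are from GENCODE vM21 (mm10). Simulated data had 13665 genes, of which 100 changed by log2 1 and 100 by log2 2. Changes of 1 were recovered for 17%, 7% and 21% (between gates, LPS in Fth1-low, LPS Fth1-high against untreated). Those of 2 were recovered for 58%, 61% and 65%, while 13.8%, 9.33% and 14% of calls were of unchanged genes. Fewer genes were changed there than were called in the data, so these rates need not hold for the data. Alternatives were RLE and upper-quartile scaling, no filter or a 10 CPM filter, DESeq2 1.42.0, limma 3.58.1 voom, fits of 2 groups only, a replicate block, no ribosomal RNA or mitochondrial genes, and leaving out each library. Poisson and Wilson intervals cover counting error only.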

Additional observations from a re-analysis of the deposited data

How the results depend on the processing

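Of 378 member differences recomputed under 16 alternatives, 350 kept their direction and their side of the threshold. Leaving out 1 library at a time, 2 to 3 members were called between the gates, 1 to 2 for LPS in the Fth1-low gate and 4 to 5 for LPS Fth1-high against untreated cells. With the 10 CPM filter, under which Sphk1 and S1pr3 were not tested, 1 was called for LPS in the Fth1-low gate. None of the differences that changed sign was called in the main analysis. Under voom Sphk1 between the gates was 0.20 and Sphk2 in LPS Fth1-high against untreated cells -0.0041. Leaving out 1 library, Sphk1 between the gates ranged from -1.27 to 0.31. For LPS in the Fth1-low gate S1pr2 ranged from -0.14 to 0.68 and Sgpl1 from -0.75 to 0.34. For LPS Fth1-high against untreated cells S1pr1 ranged from -0.80 to 0.86, S1pr3 from -1.45 to 1.03 and Sphk2 from -0.035 to 0.089. The cause of these changes was not tested. Over all genes, 1128 calls between the gates became 658 and 681 without LPS Fth1-high replicate 2 or 3. The 495 calls for LPS in the Fth1-low gate became 818 with DESeq2, 329 with voom, and 197 and 214 without untreated replicate 1 or 2. The 3315 calls for LPS Fth1-high against untreated cells became 1918 and 1921 without those same untreated libraries. The labels state no pairing, so the replicate numbers were not taken to pair libraries. Same-numbered libraries had correlations of their deviations from -0.04 to 0.29. These cannot decide on pairing, since in a group of 2 libraries the deviations mirror each other. With a replicate block 4, 2 and 5 members were called, and Sgpl1 between the gates was 1.13 (edgeR adjusted p = 0.010). Depth limits S1pr1, S1pr3, S1pr4, S1pr5 and Sphk1 most in LPS Fth1-low replicate 1, where 3 counts equal 5.02 CPM.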
